A study of Homo sapiens with 4 samples.

Results

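The LRRC8 genes encode the subunits of the volume-regulated anion channel, and their transcripts were compared across 4 RNA-seq libraries of the human prostate cancer line DU145. All 5 genes of the family (LRRC8A, LRRC8B, LRRC8C, LRRC8D and LRRC8E) were found among the 20474 genes listed in all 4 tables. The tested libraries were 2 from cells given siRNA against PTBP1, a splicing repressor that binds pyrimidine-rich RNA, and 1 from cells given siRNA against DNMT3B-L, an isoform of a DNA methyltransferase. Their reference was 1 library from cells given a negative control siRNA. Every siRNA was used at 75 nM for 48 h. The PTBP1 libraries carried differently numbered siRNAs, called PTBP1 siRNA 1 and PTBP1 siRNA 2 here. The control library was labelled WT and the others as knockdowns of their target. The family was chosen by a measured value, since LRRC8A was low with both PTBP1 siRNAs, so its difference from control is a description and carries no test. The members of the family apart from LRRC8A followed from their names and not from their values.

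The channel opens when a cell swells and lets chloride and organic osmolytes such as taurine leave, after which water follows and the volume recovers. LRRC8A is the obligatory subunit, without which no channel reaches the plasma membrane, and it assembles with its paralogs into hexamers. The partner sets what passes: LRRC8D is known to favor uncharged osmolytes and platinum drugs, and LRRC8C and LRRC8E to favor cyclic dinucleotides, while LRRC8B is the least characterized. Each protein has a pore domain related to the pannexins, followed by leucine-rich repeats in the cytoplasm.

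Depth was similar in the 4 libraries, at 22332245 to 24088975 read pairs. PTBP1 stood at 267.8 CPM with PTBP1 siRNA 1 and 135.0 CPM with PTBP1 siRNA 2, against 927.7 CPM with control siRNA. PTBP2, the paralog that PTBP1 is known to repress, stood at 60.9 CPM with PTBP1 siRNA 1 and 70.9 CPM with PTBP1 siRNA 2, against 8.26 CPM with control siRNA. DNMT3B, whose gene-level count does not separate the targeted isoform, stood at 5.46 CPM with DNMT3B-L siRNA, against 9.77 CPM with control siRNA. All 5 epithelial markers were listed, and their summed level was 1713 and 942 CPM with the PTBP1 siRNAs and 1734 CPM with DNMT3B-L siRNA, against 2007 CPM with control siRNA. The androgen receptor, KLK3, KLK2 and TMPRSS2, markers of androgen-dependent prostate cells, were not among the genes in all 4 tables, so they gave no value for the prostate label. Leukocyte markers reached at most 0.996 CPM in sum (1 of 4 listed) and endothelial markers at most 1.20 CPM (3 of 3). Of the 3 fibroblast markers, 2 were listed and DCN was not. COL1A1, a collagen of fibroblasts that some tumor cells also express, stood at 16.1 to 27.0 CPM, and COL3A1 at 0.133 to 0.561 CPM. Nothing states that the libraries came from separate cultures, so their spread may be technical. The PTBP1 libraries also carried different siRNAs that left PTBP1 at unequal levels. Their SD and the standard errors built on it therefore mix any difference between the siRNAs with noise.

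In GENCODE v29 on GRCh38, LRRC8A lies on the plus strand of chromosome 9 from 128882112 to 128918039. LRRC8B, LRRC8C and LRRC8D follow each other on the plus strand of chromosome 1, from 89524836 to 89597864, from 89633072 to 89769903 and from 89821014 to 89936611. LRRC8E lies on the plus strand of chromosome 19 from 7888505 to 7902021. The authors counted on an earlier build, so these positions only locate the genes. The longest coding transcripts encode 810 residues for LRRC8A, 803 for LRRC8B, 803 for LRRC8C, 858 for LRRC8D and 796 for LRRC8E. After global alignment, LRRC8A shared 59.7% of aligned residues with LRRC8B, 58.6% with LRRC8C, 57.3% with LRRC8D and 54.1% with LRRC8E. The closest pair was LRRC8C and LRRC8E, at 62.8%. How reads matching several members were counted is not stated in the notes used here.

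LRRC8A, the obligatory subunit, gave the value that drew attention to the family. It had 50.4 CPM (1214 read pairs) with PTBP1 siRNA 1 and 49.5 CPM (1146 read pairs) with PTBP1 siRNA 2. It had 105.2 CPM (2350 read pairs) with DNMT3B-L siRNA, against 142.0 CPM (3197 read pairs) with control siRNA. Both PTBP1 libraries lay together and below the other 2, and DNMT3B-L siRNA lay between them and control. In the plot of levels by library the exact 95% Poisson intervals, which cover counting error only, were 47.6 to 53.3 and 46.7 to 52.4 CPM for the PTBP1 siRNAs, 101.0 to 109.6 CPM for DNMT3B-L siRNA and 137.1 to 147.0 CPM for control.

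**Figure D1:**
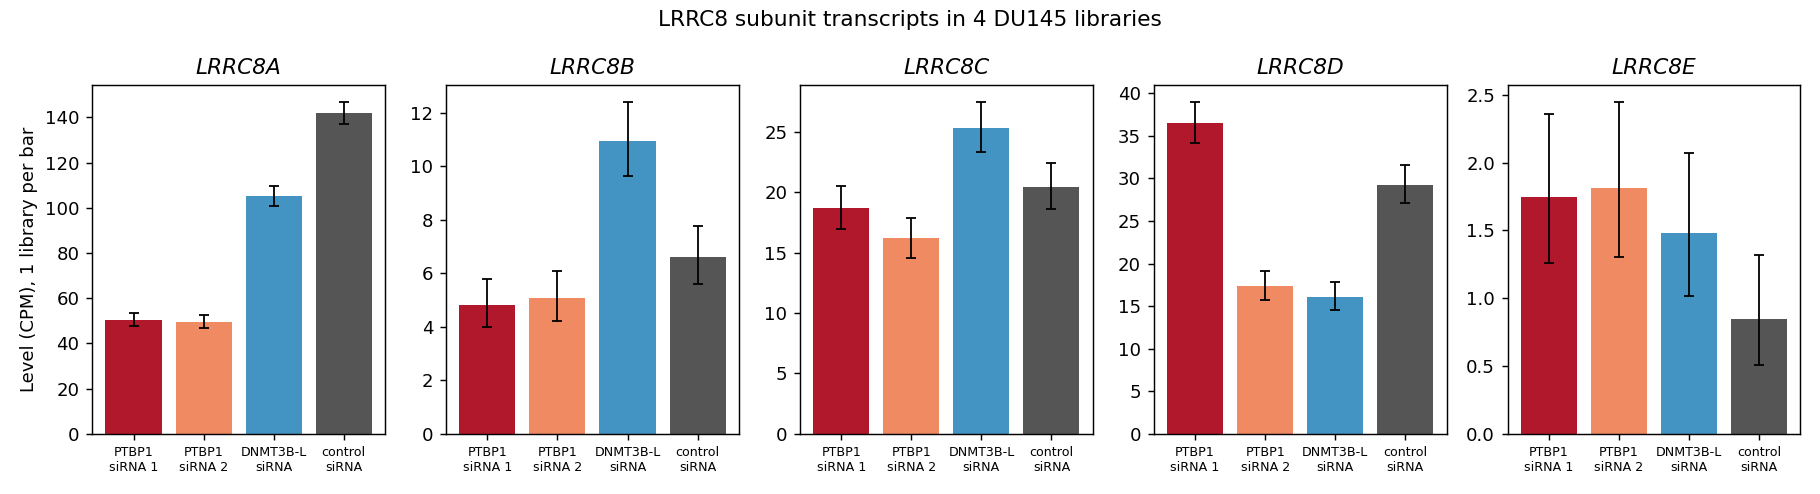
Level of each LRRC8 transcript in CPM (vertical axes, scaled per gene from 0) in the 4 DU145 libraries, with 1 library per bar and exact 95% Poisson intervals of the read pairs as error bars. LRRC8A is lowest in both PTBP1 siRNA libraries (50.4 and 49.5 CPM), while LRRC8D is low with PTBP1 siRNA 2 and DNMT3B-L siRNA (17.4 and 16.1 CPM).

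Relative to control siRNA, LRRC8A stood at 35.5% with PTBP1 siRNA 1 (interval 33.2% to 37.9% from the counts) and at 34.8% with PTBP1 siRNA 2 (32.5% to 37.3%). The mean over the PTBP1 siRNAs was 49.9 ± 0.653 CPM (SD, n = 2), and the log2 difference from control was -1.49 on the log2(CPM + 1) scale. This scale adds 1 CPM to every value and so understates changes of genes with low values. Of the 14942 genes with at least 1 CPM in at least 1 library, 26 (0.174%) were at least 2-fold lower with both PTBP1 siRNAs and 17 (0.114%) at least 2-fold higher with both. These counts are on the log2(CPM + 1) scale. LRRC8A was among the 26, as the choice of the family required, and no other member was past 2-fold with both on that scale, although the plain CPM ratio of LRRC8E was 2.07 and 2.15. Among the 11075 genes at a mean of at least 5 CPM, 15 were at least 2-fold lower with both, and for 3 of these, LRRC8A included, the smaller of the falls was at least as large as that of LRRC8A. In bulk libraries, less LRRC8A transcript per cell and fewer cells with it cannot be told apart.

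With DNMT3B-L siRNA, LRRC8A stood at 74.1% of control (interval 70.2% to 78.2% from the counts), a log2 difference of -0.43. This used the same control library that the choice of LRRC8A rested on, so it is also a description. In all, 205 of the 14942 genes (1.37%) were at least 2-fold lower and 61 (0.408%) at least 2-fold higher with DNMT3B-L siRNA than with control siRNA, and no member was in either group. Set against the DNMT3B-L library, LRRC8A was at 47.9% with PTBP1 siRNA 1 and 47.0% with PTBP1 siRNA 2. LRRC8A was thus lower with both PTBP1 siRNAs than in either of the other two libraries.

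**Figure D2:**
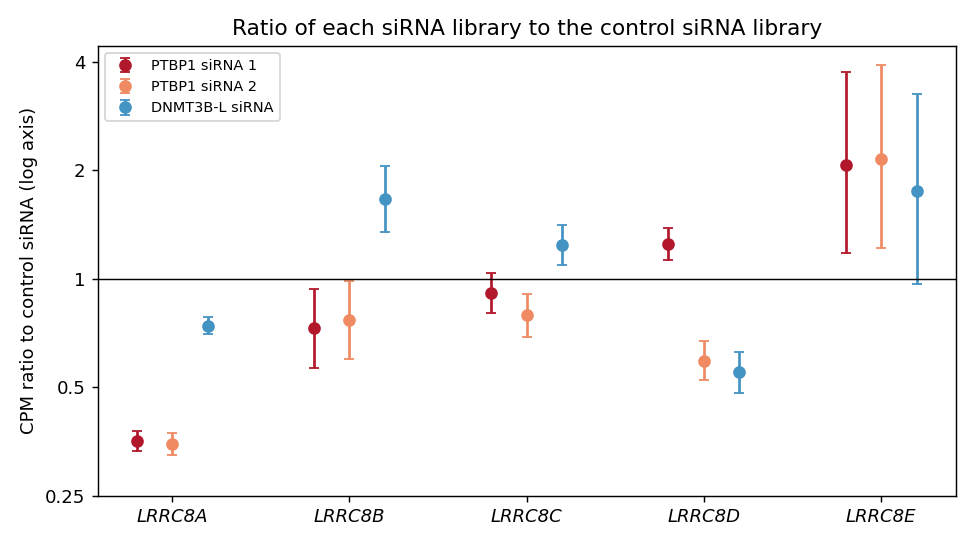
Ratio of the CPM in each siRNA library to the control siRNA library (vertical axis, log scale) for the 5 LRRC8 genes, with exact 95% intervals from the read pairs as error bars (counting error only). Both PTBP1 siRNAs give about the same ratio for LRRC8A (0.355 and 0.348), whereas for LRRC8D they lie on opposite sides of 1 (1.25 and 0.593).

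An siRNA can also lower transcripts that match the seed end of its guide strand, so the members were searched on the transcript strand for words that went with low values in each library. The 7-base word of 3′ UTRs that went with low values most strongly was CTGCACA in the PTBP1 siRNA 1 library, AAGATCA in the PTBP1 siRNA 2 library and AACAACA in the DNMT3B-L siRNA library, over 10447 genes and 14097 words. Genes with CTGCACA had a median deviation from the other libraries of -0.14 (log2) with PTBP1 siRNA 1, and genes without it 0.03. For AAGATCA with PTBP1 siRNA 2 these medians were -0.16 and 0.03, and for AACAACA with DNMT3B-L siRNA -0.06 and 0.07. The same search in the control siRNA library gave TACCTCA, with medians of -0.02 and -0.01, so the gap there was smaller. The words were read from these same libraries and were not compared with any siRNA sequence, so none is shown to be a seed match. The longest coding LRRC8A transcript held CTGCACA 3 times, AAGATCA 0 times and AACAACA 0 times. Its copies are shown because they are the only matches to the 3 words in that transcript, with the word in capitals and the 10 bases on each side in lower case, from GENCODE v29 transcripts.
LRRC8A 5′ UTR, exon 2, word at chr9:128886053-128886059, plus strand: tgccaggatcCTGCACAggcagacgcg
LRRC8A coding sequence, exon 3, word at chr9:128907555-128907561, plus strand: cctggtgcttCTGCACAcgctcatctt
LRRC8A coding sequence, exon 3, word at chr9:128908656-128908662, plus strand: cctgcgggcgCTGCACAtcaagttcac

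None of these copies lay in the 3′ UTR. Of 1310 transcripts within 10% of the length of this one, from genes at a mean of at least 5 CPM, 37.6% held CTGCACA and 2.4% held it at least 3 times. The level of LRRC8A was the same with both PTBP1 siRNAs within counting error (ratio of siRNA 1 to siRNA 2 of 1.02, interval 0.939 to 1.11). Genes with at least 2 copies of CTGCACA outside the 3′ UTR and none in it (346 genes) had a median log2 difference from control of -0.13 with PTBP1 siRNA 1, -0.04 with PTBP1 siRNA 2 and -0.12 with DNMT3B-L siRNA. Genes with no copy in the transcript (6990 genes) had medians of 0.07, 0.03 and 0.07. Genes with at least 1 copy of CTGCACA in the 3′ UTR (1678 genes) had medians of -0.16, -0.016 and 0.015 in the same order. LRRC8A itself stood at -1.48 and -1.50 with the PTBP1 siRNAs. A median over a class of genes does not give the size of an effect on 1 gene, and the part of the word in the level of LRRC8A was not tested.

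LRRC8D, the subunit linked to uncharged osmolytes and platinum drugs, behaved otherwise. It had 36.5 CPM (880 read pairs) with PTBP1 siRNA 1 and 17.4 CPM (402 read pairs) with PTBP1 siRNA 2. It had 16.1 CPM (360 read pairs) with DNMT3B-L siRNA, against 29.3 CPM (659 read pairs) with control siRNA. The PTBP1 libraries lay on opposite sides of control, and PTBP1 siRNA 2 lay beside DNMT3B-L siRNA. LRRC8D was at 125% of control with PTBP1 siRNA 1 (interval 113% to 138% from the counts), 59.3% with PTBP1 siRNA 2 (52.2% to 67.2%) and 55.1% with DNMT3B-L siRNA (48.3% to 62.7%). Between the PTBP1 siRNAs the ratio of siRNA 1 to siRNA 2 was 2.1 (1.87 to 2.37), a log2 difference of 1.03. Such a gap of at least 2-fold was found for 549 of 14942 genes (3.67%), and LRRC8D was the only member among them.

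A mean over the PTBP1 siRNAs therefore says little for LRRC8D. It was 26.9 ± 13.6 CPM (SD, n = 2), and the log2 difference from control of -0.21 became -0.72 without PTBP1 siRNA 1 and 0.31 without PTBP1 siRNA 2. The summed epithelial markers were also lower with PTBP1 siRNA 2 than with PTBP1 siRNA 1, at 942 against 1713 CPM. SYP, the 1 of 3 neuroendocrine markers in all 4 tables, stood at 4.75 CPM with PTBP1 siRNA 2, 0.955 CPM with PTBP1 siRNA 1 and 0.806 CPM with DNMT3B-L siRNA, against 0.755 CPM with control siRNA. The part of these markers in the LRRC8D level was not tested. In the fit across all genes by limma, LRRC8D did not pass with DNMT3B-L siRNA against control siRNA (-0.82 on the log2 scale with a standard error of 0.48, adjusted p = 0.998) or with PTBP1 siRNA against DNMT3B-L siRNA (0.62, standard error 0.41, adjusted p = 0.953). That fit takes the spread between the PTBP1 libraries (1 residual degree of freedom) for the DNMT3B-L and control libraries too. Any difference between the PTBP1 siRNAs is part of that spread. The fit also draws on the spread of all genes (11.5 prior degrees of freedom), so the standard errors rest only in part on LRRC8D itself. The SD between the PTBP1 libraries on the log2 scale was 0.73 for LRRC8D and 0.026 for LRRC8E. The standard error of LRRC8E with DNMT3B-L siRNA against control siRNA was still 0.40. The intervals from the counts are much narrower than these errors because they cover counting error only.

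The longest coding LRRC8D transcript held CTGCACA 0 times, AAGATCA 2 times and AACAACA 2 times. These copies are shown because AAGATCA and AACAACA belong to the 2 libraries in which LRRC8D was low, with the word in capitals as above, and all lie in the coding sequence of exon 3.
LRRC8D AAGATCA, word at chr1:89933214-89933220, plus strand: caacttaccaAAGATCAggtggtctgt
LRRC8D AAGATCA, word at chr1:89935560-89935566, plus strand: cttgttgtggAAGATCAcctttttgat
LRRC8D AACAACA, word at chr1:89935211-89935217, plus strand: ttatttctctAACAACAagctcgaatc
LRRC8D AACAACA, word at chr1:89935283-89935289, plus strand: tgtgagctacAACAACAtttcaatgat

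Of 1345 transcripts of like length, 32.2% held AAGATCA and 30.8% held AACAACA, while 5.9% held AAGATCA and 6.7% held AACAACA at least 2 times. Genes with at least 2 copies outside the 3′ UTR and none in it had median log2 differences from control of -0.001, -0.18 and -0.03 with PTBP1 siRNA 1, PTBP1 siRNA 2 and DNMT3B-L siRNA for AAGATCA (383 genes). For AACAACA (347 genes) they were 0.007, -0.05 and -0.12 in the same order. Genes with no copy in the transcript had medians of 0.016, 0.067 and 0.054 for AAGATCA (7285 genes). For AACAACA the medians without a copy were 0.013, 0.025 and 0.085 (7488 genes). Of the other members with AAGATCA, LRRC8B (1 copy) and LRRC8C (1 copy) were below control with PTBP1 siRNA 2, at ratios of 0.770 and 0.792, and LRRC8E (2 copies) was above it, at 2.15. Of the other members with AACAACA, LRRC8B and LRRC8C (1 copy each) were above control with DNMT3B-L siRNA, at 1.66 and 1.24. Besides LRRC8A, CTGCACA was held by LRRC8B and LRRC8E (1 copy each), at 0.728 and 2.07 of control with PTBP1 siRNA 1. The part of these words in the levels of the members was not tested. The only match in a 3′ UTR of the family was AAGATCA in LRRC8C.

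LRRC8C, a partner whose channels carry chloride and cyclic dinucleotides, changed little. It had 18.7 CPM (450 read pairs) with PTBP1 siRNA 1, 16.2 CPM (375 read pairs) with PTBP1 siRNA 2 and 25.3 CPM (566 read pairs) with DNMT3B-L siRNA, against 20.4 CPM (460 read pairs) with control siRNA. Both PTBP1 libraries were below control and the DNMT3B-L library above it. The ratio to control was 0.914 with PTBP1 siRNA 1 (interval 0.801 to 1.04, which holds 1), 0.792 with PTBP1 siRNA 2 (0.689 to 0.910) and 1.24 with DNMT3B-L siRNA (1.09 to 1.41). By limma the difference between DNMT3B-L siRNA and control siRNA did not pass (0.30 on the log2 scale with a standard error of 0.38, adjusted p = 0.998), and neither did that between PTBP1 siRNA and DNMT3B-L siRNA (-0.52, standard error 0.33, adjusted p = 0.953).

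LRRC8B, the least characterized partner, was low in level throughout. It had 4.82 CPM (116 read pairs) with PTBP1 siRNA 1, 5.09 CPM (118 read pairs) with PTBP1 siRNA 2 and 11.0 CPM (245 read pairs) with DNMT3B-L siRNA, against 6.62 CPM (149 read pairs) with control siRNA. The order of the libraries was the same as for LRRC8C in that DNMT3B-L siRNA was highest and both PTBP1 siRNAs were below control. Its ratio to control was 0.728 with PTBP1 siRNA 1 (interval 0.566 to 0.934), 0.770 with PTBP1 siRNA 2 (0.599 to 0.987) and 1.66 with DNMT3B-L siRNA (1.35 to 2.05). Against DNMT3B-L siRNA, LRRC8B was at 43.9% and 46.4% with the PTBP1 siRNAs, near the 47.9% and 47.0% of LRRC8A. By limma its difference between PTBP1 siRNA and DNMT3B-L siRNA was -1.01 (standard error 0.34, adjusted p = 0.781) and that between DNMT3B-L siRNA and control siRNA 0.65 (standard error 0.40, adjusted p = 0.998), and neither passed. In GENCODE v29 an antisense gene, LRRC8C-DT, shares 3.0% of the exon bases of LRRC8B, and it was itself at 0.623 to 1.43 CPM. A sense gene, AC093423.3, shares 2.77% of the exon bases of LRRC8C and 6.78% of those of LRRC8D.

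LRRC8E, a partner linked to cyclic dinucleotide transport, was at the edge of detection. It had 1.74 CPM (42 read pairs) with PTBP1 siRNA 1, 1.81 CPM (42 read pairs) with PTBP1 siRNA 2 and 1.48 CPM (33 read pairs) with DNMT3B-L siRNA, against 0.844 CPM (19 read pairs) with control siRNA. The control library was lowest and the other 3 did not differ beyond their counting intervals. The ratio to control was 2.07 (interval 1.18 to 3.76), 2.15 (1.22 to 3.91) and 1.75 (0.967 to 3.26) in the same library order. LRRC8E reached the minimum of 1 CPM only outside the control library, so being tested at all required a higher value there. By limma it did not pass with DNMT3B-L siRNA against control siRNA (0.43 on the log2 scale with a standard error of 0.40, adjusted p = 0.998) or with PTBP1 siRNA against DNMT3B-L siRNA (0.17, standard error 0.35, adjusted p = 0.999). An antisense gene, AC010336.1, covers 74.3% of the exon bases of LRRC8E in GENCODE v29, at 0.133 to 0.291 CPM itself. Whether strand was used in the counting is not stated in the notes used here, so reads from either gene cannot be told apart.

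All 5 members passed the filter of at least 1 CPM in at least 1 library. Of the 4 partners, 0 passed by limma with DNMT3B-L siRNA against control siRNA, where 0 of 14942 genes passed (0%, with 457 at an unadjusted p under 0.05). Likewise 0 passed with PTBP1 siRNA against DNMT3B-L siRNA, where 1 gene passed (0.00669%, with 796 at an unadjusted p under 0.05). Of the 4 partners, 0 had an unadjusted p under 0.05 with DNMT3B-L siRNA against control siRNA and 1, LRRC8B, had one with PTBP1 siRNA against DNMT3B-L siRNA. For the partners, edgeR and DESeq2 also called 0 in both comparisons, and DESeq2 gave no adjusted p for LRRC8E with PTBP1 siRNA against DNMT3B-L siRNA. Values that miss the threshold do not show that the partners were unchanged.

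Within a library, ratios between members depend on no scaling between libraries. LRRC8A took 44.9% of all LRRC8 read pairs with PTBP1 siRNA 1 (exact binomial interval 43.0% to 46.8%), 55.0% with PTBP1 siRNA 2 (52.9% to 57.2%) and 66.1% with DNMT3B-L siRNA (64.5% to 67.7%), against 71.3% with control siRNA (69.9% to 72.6%). The share was thus lower in both PTBP1 libraries than in the other 2, and the PTBP1 libraries differed from each other. Since low LRRC8A with the PTBP1 siRNAs chose the family, its lower share there largely restates that choice and is a description. LRRC8D took 32.6% with PTBP1 siRNA 1, 19.3% with PTBP1 siRNA 2 and 10.1% with DNMT3B-L siRNA, against 14.7% with control siRNA. LRRC8C took 16.7%, 18.0% and 15.9% in the same order, against 10.3% with control siRNA. LRRC8B and LRRC8E together never exceeded the share of LRRC8C.

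**Figure D3:**
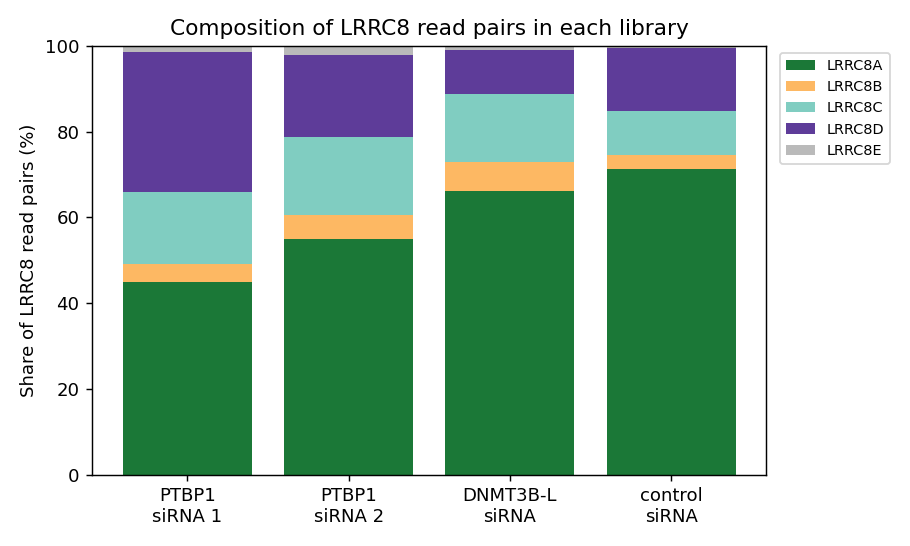
Share of the LRRC8 read pairs (vertical axis, percent) taken by each gene in the 4 DU145 libraries, stacked to 100%, with 1 library per bar. LRRC8A makes up 44.9% and 55.0% with the PTBP1 siRNAs and 66.1% with DNMT3B-L siRNA, against 71.3% with control siRNA. The low LRRC8A that chose the family enters these shares.

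For every 100 read pairs of LRRC8A there were 72.5 of LRRC8D with PTBP1 siRNA 1 (interval 66.4 to 79.1), 35.1 with PTBP1 siRNA 2 (31.2 to 39.3) and 15.3 with DNMT3B-L siRNA (13.7 to 17.1), against 20.6 with control siRNA (18.9 to 22.4). For LRRC8C the corresponding numbers were 37.1, 32.7 and 24.1, against 14.4 with control siRNA, and for LRRC8B they were 9.56, 10.3 and 10.4, against 4.66 with control siRNA. For LRRC8E, at 19 to 42 read pairs, they were 3.46, 3.66 and 1.4, against 0.594 with control siRNA. LRRC8B, LRRC8C and LRRC8E were therefore more abundant relative to LRRC8A in each targeting library than in control, and LRRC8D in the PTBP1 libraries only. LRRC8A chose the family, and its lower level enters each of these numbers in the PTBP1 libraries. It enters those of the DNMT3B-L library as well, where LRRC8A was at 74.1% of control. LRRC8B and LRRC8C were themselves below control with both PTBP1 siRNAs, and LRRC8D with PTBP1 siRNA 2. For these the shift shows only that they were lowered less than LRRC8A. LRRC8D with PTBP1 siRNA 1 and LRRC8E with both PTBP1 siRNAs were themselves above control, so there the lower LRRC8A gives part of the shift. The same holds for LRRC8B and LRRC8C with DNMT3B-L siRNA. LRRC8E was above control there too, but the interval of its ratio held 1.

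The summed level of the family was 112.2 CPM with PTBP1 siRNA 1, 89.9 CPM with PTBP1 siRNA 2 and 159.1 CPM with DNMT3B-L siRNA, against 199.2 CPM with control siRNA. Without LRRC8A, the 4 partners summed to 61.8 CPM (interval 58.7 to 65.0), 40.5 CPM (37.9 to 43.1) and 53.9 CPM (50.9 to 57.1), against 57.2 CPM (54.1 to 60.4) with control siRNA. The partner sum stood at 108%, 70.8% and 94.3% of control, and the interval lay apart from that of control with PTBP1 siRNA 2 while the other two overlapped it. The fall of the whole family with PTBP1 siRNA 1 was in LRRC8A and to a small extent in LRRC8B and LRRC8C, while LRRC8D was higher.

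Levels of different genes can be compared per kilobase of exon, using GENCODE v29 lengths of 5230 bases for LRRC8A, 8213 for LRRC8B, 11724 for LRRC8C, 4852 for LRRC8D and 4329 for LRRC8E. With PTBP1 siRNA 1 the levels were 9.64 CPM per kilobase for LRRC8A, 7.53 for LRRC8D, 1.59 for LRRC8C, 0.586 for LRRC8B and 0.403 for LRRC8E. With control siRNA they were 27.2 for LRRC8A, 6.03 for LRRC8D, 1.74 for LRRC8C, 0.806 for LRRC8B and 0.195 for LRRC8E. The order was the same in each library, and by these lengths neighbours lay apart beyond counting error except LRRC8B and LRRC8E in the PTBP1 libraries. By the length of the longest coding transcript the order was also the same. With DNMT3B-L siRNA, LRRC8D and LRRC8C were then at 4.08 and 3.51 CPM per kilobase, and their counting intervals overlapped. The ratio of LRRC8A to the sum of its partners per kilobase was 0.953 with PTBP1 siRNA 1, 1.58 with PTBP1 siRNA 2 and 2.81 with DNMT3B-L siRNA, against 3.09 with control siRNA. Among 14903 genes with a length, LRRC8A exceeded 69.4% and 69.1% with the PTBP1 siRNAs and 83.4% with DNMT3B-L siRNA, against 88.6% with control siRNA. This rank and the ratio to the partners hold the low values by which LRRC8A was chosen, so they are descriptions too.

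**Figure D4:**
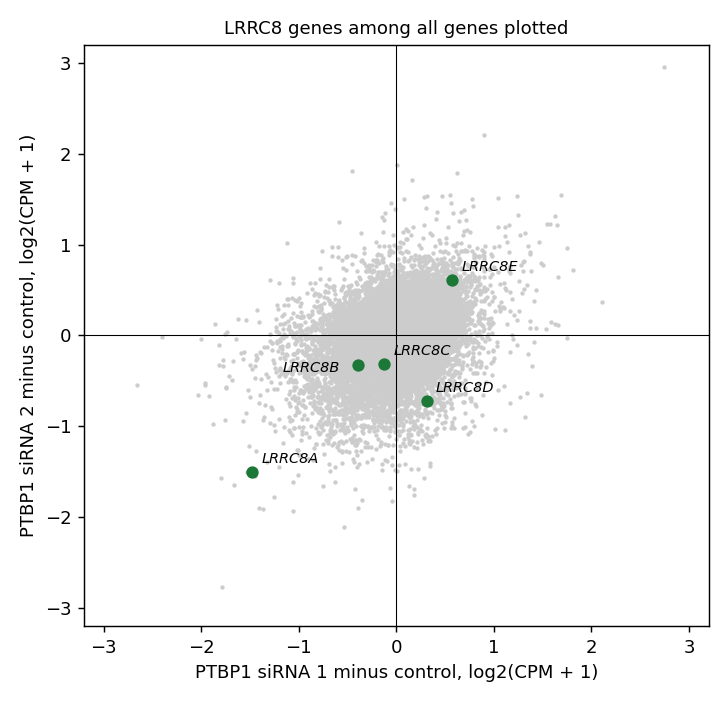
Difference from control siRNA on the log2(CPM + 1) scale with PTBP1 siRNA 1 (horizontal axis) and PTBP1 siRNA 2 (vertical axis) for the 14149 genes at a mean of at least 1 CPM (gray points), with the LRRC8 genes in green. Both axes share the control library. LRRC8A sits at -1.48 and -1.50, LRRC8D at 0.31 and -0.72, and the other members closer to the origin than LRRC8A.

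The genes whose profile over the 4 libraries was closest to that of LRRC8A, by Euclidean distance of log2(CPM + 1) centred on each gene's mean, among 11074 genes at a mean of at least 5 CPM, were FA2H (0.249), CA12 (0.301), SMYD2 (0.310), TMEM64 (0.324) and CALD1 (0.332). FA2H, a fatty acid hydroxylase, had 2.99 and 3.89 CPM with the PTBP1 siRNAs and 8.11 CPM with DNMT3B-L siRNA, against 10.4 CPM with control siRNA. CA12, a membrane-bound carbonic anhydrase, had 12.4 and 11.5 CPM with the PTBP1 siRNAs and 20.4 CPM with DNMT3B-L siRNA, against 35.7 CPM with control siRNA. SMYD2, a lysine methyltransferase, had 13.99 and 15.8 CPM with the PTBP1 siRNAs and 38.4 CPM with DNMT3B-L siRNA, against 39.7 CPM with control siRNA. The other two had the same order of libraries, with both PTBP1 siRNAs lowest and control highest. The other members of the family lay further off than these 5 genes, with distances of 0.970 for LRRC8B, 1.05 for LRRC8C, 1.67 for LRRC8D and 1.76 for LRRC8E.

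The wider machinery of cell volume was followed in 5 lists of 90 genes in all, of which 67 were tested. With PTBP1 siRNA against control siRNA, 0 of the 67 passed by limma in either direction, where 1 of 14942 genes, PTBP2, passed (0.00669%, with 396 at an unadjusted p under 0.05), and 5 of the 67 had such an unadjusted p. With DNMT3B-L siRNA against control siRNA 0 passed and 5 had an unadjusted p under 0.05, beside 457 of 14942 genes. With PTBP1 siRNA against DNMT3B-L siRNA 0 passed and 7 had one, beside 796 of 14942 genes. Both edgeR and DESeq2 called 0 in each comparison. The median log2 difference from control over the 67 genes was 0.00068 with PTBP1 siRNA 1, -0.10 with PTBP1 siRNA 2 and -0.15 with DNMT3B-L siRNA, beside 0.0012, 0.0039 and 0.026 over all genes tested. The limma fit missed the fall of PTBP1 itself, so missing the threshold does not show that the list genes were unchanged. By fold, 0 of the 67 were 2-fold changed with both PTBP1 siRNAs and 3 were at least 2-fold lower with DNMT3B-L siRNA, with 0 higher. Over all 14942 genes, 26 (0.174%) were lower and 17 (0.114%) higher with both PTBP1 siRNAs, and 205 (1.37%) were lower and 61 (0.408%) higher with DNMT3B-L siRNA.

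Of the other anion channels, 26 of 36 were tested. CLIC1 and CLIC4, intracellular channel proteins, were among the most abundant, and CLIC1 had 368.5 and 366.3 CPM with the PTBP1 siRNAs and 282.3 CPM with DNMT3B-L siRNA, against 406.7 CPM with control siRNA. TTYH3, of the tweety family of anion channels, had 119.1 and 180.6 CPM with the PTBP1 siRNAs and 133.8 CPM with DNMT3B-L siRNA, against 166.9 CPM with control siRNA. CLIC4 ranged from 325.2 to 349.2 CPM. CLIC3 was the channel gene at least 2-fold lower with DNMT3B-L siRNA. It had 11.3 and 6.04 CPM with the PTBP1 siRNAs and 7.70 CPM with DNMT3B-L siRNA, against 18.8 CPM with control siRNA.

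Of the transporters, channels and kinases of volume regulation, 22 of 26 were tested. PIEZO1, a mechanosensitive cation channel, and SLC4A2, an anion exchanger, were among the most abundant. PIEZO1 had 444.8 and 389.3 CPM with the PTBP1 siRNAs and 353.7 CPM with DNMT3B-L siRNA, against 519.4 CPM with control siRNA. SLC4A2 ranged from 380.8 to 418.1 CPM over the 4 libraries. AQP3, a water and glycerol channel, was at least 2-fold lower with DNMT3B-L siRNA, at 8.64 CPM against 33.2 CPM with control siRNA, and had 26.4 and 13.6 CPM with the PTBP1 siRNAs.

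Of the organic osmolyte genes, 7 of 8 were tested. SLC6A6, the taurine transporter, had 347.8 and 393.5 CPM with the PTBP1 siRNAs and 209.1 CPM with DNMT3B-L siRNA, against 244.6 CPM with control siRNA, and did not pass by limma with PTBP1 siRNA against DNMT3B-L siRNA (adjusted p = 0.790). Both PTBP1 siRNA libraries were above the other two. SLC6A12, the betaine and GABA transporter, was at least 2-fold lower with DNMT3B-L siRNA, at 4.52 CPM against 17.6 CPM with control siRNA, and had 9.34 and 6.22 CPM with the PTBP1 siRNAs. AKR1B1, the aldose reductase that makes sorbitol, ranged from 550.1 to 752.9 CPM, and SLC38A2, an amino acid transporter, from 315.5 to 599.7 CPM.

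Of the large-pore channel relatives, 6 of 12 were tested. PANX1, the pannexin whose fold the LRRC8 pore resembles, had 58.2 and 50.2 CPM with the PTBP1 siRNAs and 64.3 CPM with DNMT3B-L siRNA, against 53.4 CPM with control siRNA. PANX2 had 27.1 and 53.7 CPM with the PTBP1 siRNAs and GJC1, a connexin, 140.7 and 74.7 CPM, so the PTBP1 siRNAs lay on opposite sides of control for both (43.0 CPM for PANX2 and 124.9 CPM for GJC1). With DNMT3B-L siRNA, PANX2 had 39.7 CPM and GJC1 141.1 CPM. Of the genes that sense or carry cyclic dinucleotides, 6 of 8 were tested. TMEM173, the STING adaptor, had 89.3 and 58.3 CPM with the PTBP1 siRNAs and 52.4 CPM with DNMT3B-L siRNA, against 102.1 CPM with control siRNA. SLC19A1, a folate carrier that also takes up cyclic dinucleotides, had 167.2 and 162.9 CPM with the PTBP1 siRNAs and 166.7 CPM with DNMT3B-L siRNA, against 120.7 CPM with control siRNA. IRF3, the transcription factor downstream of STING, ranged from 46.5 to 65.6 CPM.

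**Figure D5:**
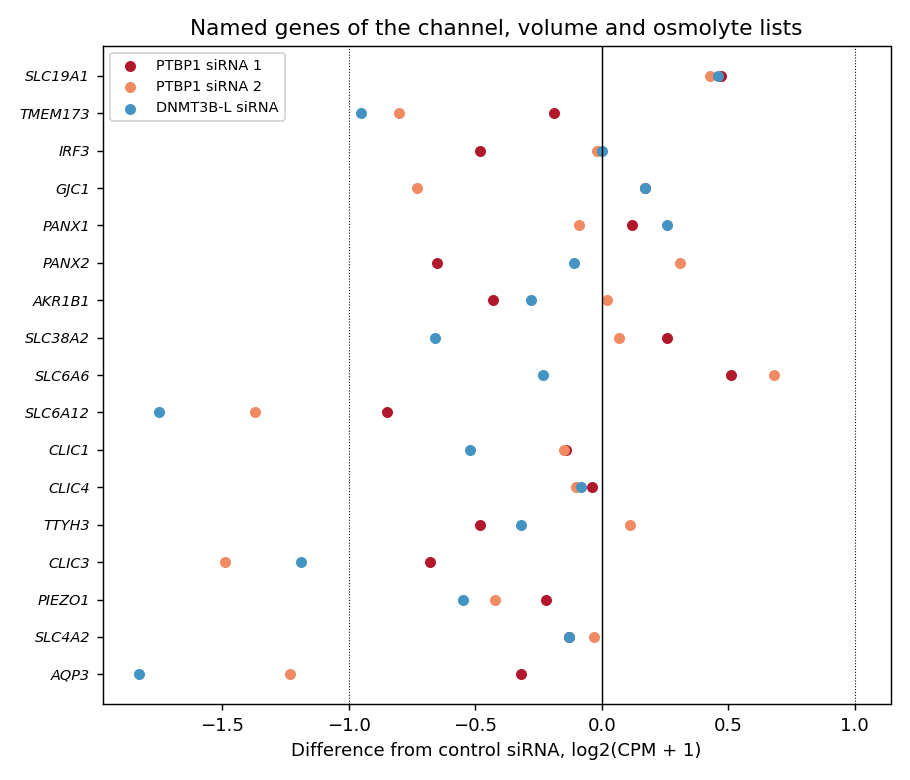
Difference from control siRNA on the log2(CPM + 1) scale (horizontal axis) for the genes of the 5 lists that the text names (vertical axis), with 1 point per library for the PTBP1 siRNAs and DNMT3B-L siRNA and dotted lines at 2-fold. AQP3, SLC6A12 and CLIC3 lie past the 2-fold line with DNMT3B-L siRNA (-1.83, -1.75 and -1.19).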

How the data were processed

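RNA-seq of 4 DU145 libraries was used. The submitters' processing notes list HTSeq 0.6.1, HISAT2 2.1.0 and bcl2fastq 2.19.1, and as builds GRCh37 and hg19. CPM values for 21973 to 22069 genes were deposited by the authors, separately for each library. Annotation, strand setting and the rule for listing genes are not given in the sources used here. Per library, 98.99% to 99.2% of values came out as whole numbers of read pairs (tolerance 0.001), and the rest stood at 0.5 read pair, read here as 0. Genes missing from any table reached at most 4.702 CPM and were left out. Of gene IDs, 98.92% matched the table of gene names.

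Differences were tested on log2(CPM + 1) by limma with an intensity trend (version 3.58.1, R 4.3.3), over 14942 genes with at least 1 CPM in at least 1 library, with all 4 libraries in 1 fit by condition and Benjamini-Hochberg adjustment over all genes (threshold 0.05). It was tested on simulated data with less noise than these libraries and with larger changes than those of the members. That simulation therefore does not show how the fit performs at the noise and changes seen here. No p is given for LRRC8A, nor for any member in PTBP1 siRNA against control siRNA, since that contrast chose the family. edgeR 4.0.16 and DESeq2 1.42.0 on the recovered read pairs, no filter, a mean of at least 5 CPM, pseudocounts of 0.1 and 5, quantile normalization, TMM factors and leaving out each PTBP1 siRNA were the alternatives. Intervals are exact (95%) from read pairs and cover counting error only, since PCR copies are not independent molecules.

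Words of 7 bases present in at least 200 genes were regressed against each library's deviation from the mean of the other 3, adjusted for 3′ UTR length and GC content, on the longest coding transcript of each gene at a mean of at least 5 CPM with a 3′ UTR of at least 50 bases. Proteins were translated and aligned with Biopython 1.88 in Python 3.11.15.

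Genes named are the 5 members, the targeted genes, the 3 members of each list with the highest mean CPM, list members 2-fold changed with both PTBP1 siRNAs or with DNMT3B-L siRNA, and the 5 genes with the profile closest to LRRC8A. Genes that fall under this rule or the marker lists and are absent from the text are not reported here. The members and lists were chosen with earlier results of these data known, and the word search and protein comparison were added after the values were seen.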

Additional observations from a re-analysis of the deposited data

How the results depend on the processing

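Of 50 values of the members under the alternatives, 44 moved by less than the spread between the PTBP1 siRNAs or the counting interval and 6 moved by more, with 0 changes of sign among those 6. The 44 include every value with 1 PTBP1 siRNA left out. With 2 libraries such a value always moves by less than their SD, so it could not have counted as moved. The sign of LRRC8D with PTBP1 siRNA did change with the siRNA left out, between -0.722 and 0.31. With a pseudocount of 5, LRRC8A was at -1.42 against control. Genes past the threshold for PTBP1 siRNA against control siRNA numbered 1, and 0 with no filter, under quantile normalization and with edgeR, and 2 with DESeq2. For DNMT3B-L siRNA against control siRNA they numbered 0, also with edgeR, and 1 with DESeq2. For PTBP1 siRNA against DNMT3B-L siRNA they numbered 1, and 0 with no filter and under quantile normalization, while edgeR gave 1 and DESeq2 gave 4. For these counts the cause was not tested. Genes at least 2-fold lower with both PTBP1 siRNAs numbered 26, and 15 at a mean of at least 5 CPM (fewer genes tested), 106 and 6 with pseudocounts of 0.1 and 5, which stretch or shrink ratios of low values by construction, and 226 to 246 with 1 siRNA alone, an alternative chosen after seeing the data. With DNMT3B-L siRNA they numbered 205, and 547 and 62 with those pseudocounts. Per kilobase of exon, LRRC8A took 48.8% and 61.2% of the family with the PTBP1 siRNAs and 73.8% with DNMT3B-L siRNA, against 75.6% with control siRNA. TMM factors moved no summed level beyond its counting interval. No paired analysis was possible because only the PTBP1 siRNA libraries carry numbers. With either PTBP1 siRNA omitted no residual degrees of freedom remain, hence no count of passing genes. Depth limits LRRC8E, at 19 to 42 read pairs.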
